A study of Mus musculus with 6 samples.

Results

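The genes that make and process the lipids of the skin barrier were described in mouse handpads that lacked Grhl3, a transcription factor of the grainyhead-like family that acts in surface epithelia. A list of 34 genes was used, chosen by symbol for known roles in ceramide and acylceramide synthesis (18 genes), the lipoxygenase branch (4), lipid transport and glycolipid metabolism (4), lipases (4), and sphingomyelinases and ceramidases (4). All 34 had an entry among the 34989 genes of the transcript tables, and 30 passed the filter on low counts that left 16938 genes for testing. The handpad is the paddle-shaped end of the forelimb, here taken from C57BL/6 embryos at the E14.5 stage, when the digits separate. There were 3 libraries from handpads labelled Grhl3KO and 3 from handpads labelled WT (wild-type). No other allele or treatment is given, nor which part of Grhl3 was deleted, and the labels do not say whether a library was a single embryo or a pool. The spread between libraries may thus be technical in part.

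The outer skin barrier is a lipid layer between dead, flattened cells, built mainly from ceramides, cholesterol and free fatty acids. Keratinocytes elongate fatty acids, join them to a sphingoid base, hydroxylate and esterify the end of the chain to make acylceramides, and pack glucosylated precursors and sphingomyelin into lamellar bodies for secretion. Lipoxygenases then oxidise the esterified linoleate, and lipases, glucosidases, sphingomyelinases and ceramidases finish the lipids and recycle the ceramide. In the mouse embryo this programme comes into full use late in gestation, when the granular layer forms, and loss of several of these genes in people causes ichthyosis, a scaling skin disease.

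The sequences before the start sites of Lipm, Acer1 and Sdr9c7, which had lower CPM (counts scaled to library size) in every knockout library than in any wild-type library, are shown with that of Smpd1, a sphingomyelinase with a log2 fold change of 0.16. Elovl4 and Ugcg were also lower in CPM in every knockout library and are not printed. Each is the 250 bases before the annotated start, 5′ to 3′ on the gene's own strand, from RefSeq on build GRCm38.p6 (mm10). Capitals mark CpG dinucleotides. The windows lie at chr19:34100693-34100942 (Lipm, plus strand), chr17:56982127-56982376 (Acer1, minus strand), chr10:127898285-127898534 (Sdr9c7, plus strand) and chr7:105554110-105554359 (Smpd1, plus strand).
Lipm: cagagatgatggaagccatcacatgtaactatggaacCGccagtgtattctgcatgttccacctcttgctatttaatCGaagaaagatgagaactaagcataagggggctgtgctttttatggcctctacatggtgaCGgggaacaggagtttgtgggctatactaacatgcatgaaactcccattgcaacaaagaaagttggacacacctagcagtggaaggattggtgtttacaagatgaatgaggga
Acer1: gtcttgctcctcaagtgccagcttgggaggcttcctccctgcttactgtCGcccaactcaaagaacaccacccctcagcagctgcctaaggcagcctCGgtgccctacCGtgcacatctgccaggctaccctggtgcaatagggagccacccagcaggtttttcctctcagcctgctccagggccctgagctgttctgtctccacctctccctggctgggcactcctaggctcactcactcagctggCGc
Sdr9c7: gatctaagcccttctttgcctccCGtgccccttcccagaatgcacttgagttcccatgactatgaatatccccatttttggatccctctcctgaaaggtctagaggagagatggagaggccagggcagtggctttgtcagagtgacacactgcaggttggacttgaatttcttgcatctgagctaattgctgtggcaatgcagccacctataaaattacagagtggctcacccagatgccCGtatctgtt
Smpd1: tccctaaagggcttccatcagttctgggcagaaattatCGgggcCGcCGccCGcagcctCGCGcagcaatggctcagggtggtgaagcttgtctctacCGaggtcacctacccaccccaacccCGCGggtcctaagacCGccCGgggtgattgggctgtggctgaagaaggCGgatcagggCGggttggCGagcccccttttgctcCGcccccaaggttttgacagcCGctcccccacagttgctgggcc

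The Lipm, Acer1 and Sdr9c7 windows held 3, 4 and 2 CpG dinucleotides, and the Smpd1 window held 16. The Elovl4 and Ugcg windows held 25 and 43, more than that of Smpd1, so the genes without overlap on the lower side had both CpG-poor and CpG-rich windows. Of the 34 genes, 27 had a window in the reference table, in 29 windows in all, with Smpd3 among the genes that had none. The 10 genes with a mean level of at least 10 TPM (transcript abundance as a share of the library, corrected for length) had 8 to 43 CpG dinucleotides in their richest window, with a median of 18.5. The 17 genes under 10 TPM had 1 to 25, with a median of 5. The median over all 32851 windows was 6. The grainyhead sequence AACCGGTT, which reads the same on both strands, was in none of the 29 windows and in 0.116% of all windows, and the looser form AACNGGTT, searched on both strands, was in none and in 1.79%. TATAAA, on either strand, was found in the Sdr9c7 window alone, at 42 to 37 bases before the start, and in 12.4% of all windows. The AP-1 sequence TGAGTCA, on either strand, was in the Lipn window and in 1 of the Plb1 windows, and in 4.46% of all windows. These matches describe the letters of the windows only.

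The knockout libraries held 50347529, 47642524 and 56037639 estimated counts and the wild-type libraries 39587367, 48984542 and 38052692. Grhl3 itself fell, with 2.86 to 3.11 CPM in knockout libraries and 14.3 to 45.7 CPM in wild-type libraries (log2 fold change -3.14, SE 0.41, adjusted p = 0.0221, edgeR). Hoxa13, Hoxd13 and Tbx5, which mark the forelimb end, were present in all 6 libraries. Wild-type replicate 1 stood apart, with log2 CPM correlations of 0.973 and 0.975 with the other wild-type libraries against 0.971 to 0.979 with the knockout libraries, and with 9.03% of its counts on ribosomal protein genes, where the other libraries had 5.74% to 7.86%. Wild-type replicates 2 and 3 had 290 and 341 CPM of Y-linked counts, and the other 4 libraries 3.38 to 5.36 CPM. Genotype and embryo sex therefore cannot be told apart without wild-type replicate 1, and values with and without that library are given beside each called gene.

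Across the list, levels per length spread from 0 to a mean of 59.5 TPM for Asah1 in wild-type libraries. Of the 30 tested genes, 11 had a mean of at least 10 TPM, 13 lay between 1 and 10 TPM, and 6 were below 1 TPM, beside a median of 10.8 TPM over all tested genes. The high group held enzymes that many cells use for sphingolipids and long-chain fatty acids, such as Degs1, the desaturase that completes ceramide, at 46.2 ± 5.12 TPM in knockout and 45.9 ± 4.89 TPM in wild-type libraries (SD, n = 3 each). It also held Elovl4, the elongase of ultra-long chains, at 10 ± 2.5 TPM in knockout and 15 ± 3.23 TPM in wild-type libraries (SD, n = 3 each). Among the genes between 1 and 10 TPM were Cers3, the ceramide synthase for very long acyl chains, at 5.03 ± 0.748 TPM in knockout and 4.57 ± 2.12 TPM in wild-type libraries (SD, n = 3 each), and Abca12, the transporter that loads lipid into lamellar bodies, at 1.51 ± 0.689 and 2.15 ± 1.04 TPM. In 7 genes under 50% of the TPM came from transcripts annotated as protein-coding: Sptlc2 (19.2%), Cers4 (13.3%), Elovl7 (45.4%), Aloxe3 (39.9%), Sdr9c7 (48%), Plb1 (9.12%) and Asah1 (19.5%). For these the gene level includes transcripts annotated as processed, intron-retaining or subject to nonsense-mediated decay. With only coding transcripts summed, the mean over all libraries was 8.85 TPM for Sptlc2 and 10.9 TPM for Asah1. TPM is corrected for length, so short transcripts with few counts can hold much of it, and the fold changes used counts. In knockout replicate 1 the coding transcript of Sptlc2 held 2857 of 3881 estimated counts. The main coding transcript of Asah1 held 1255 of 4033.

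**Figure D1:**
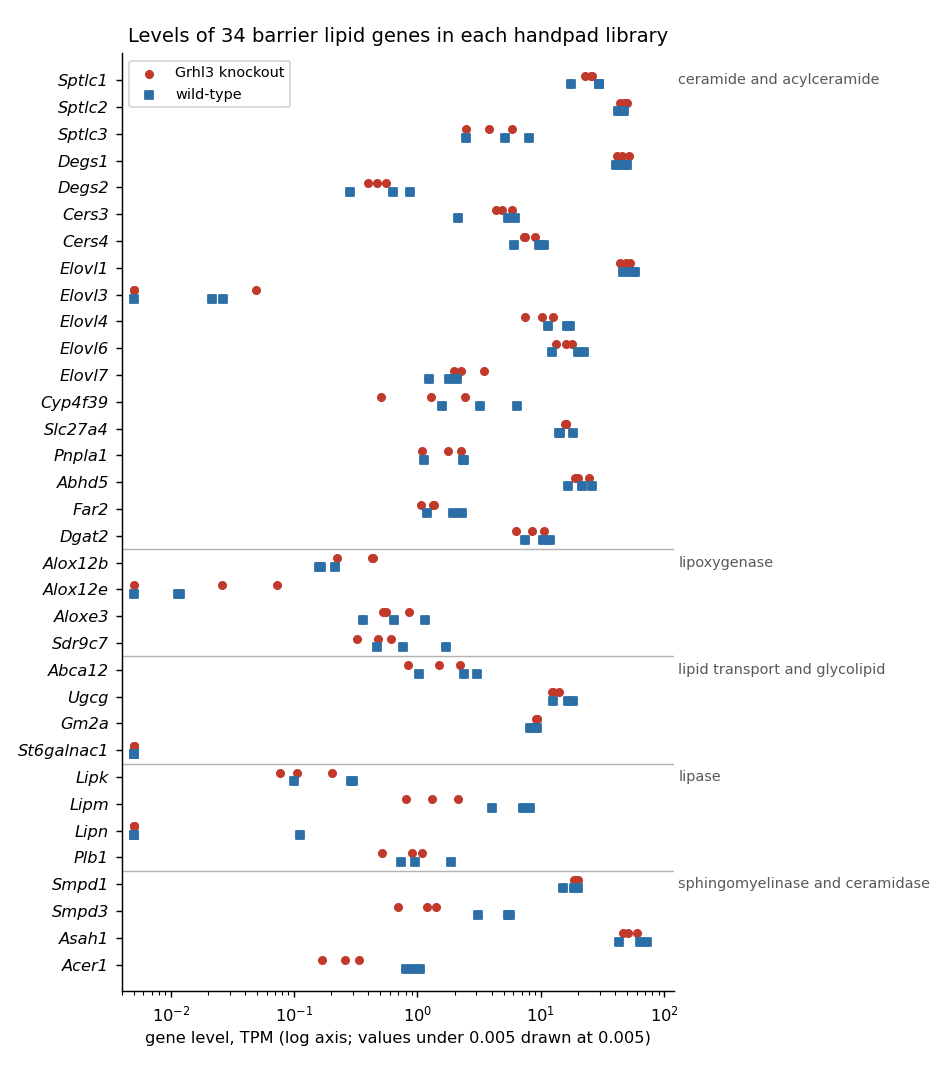
Level of each of the 34 genes in TPM (log axis) in the 3 knockout libraries (red circles, upper row of each gene) and the 3 wild-type libraries (blue squares, lower row), grouped by step. Values under 0.005 TPM are drawn at 0.005. In TPM, Lipm, Smpd3 and Acer1 were lower and Alox12b was higher in every knockout library than in any wild-type library, and the other genes overlapped.

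Of the 30 tested genes, 2 fell in the knockout and 0 rose (edgeR quasi-likelihood test, false discovery rate under 0.05). The genes that fell were Lipm, an epidermal lipase, and Smpd3, a neutral sphingomyelinase, at 4.25-fold and 4.2-fold lower levels. Over all tested genes 0.0827% were called lower and 0.348% higher. At an unadjusted p under 0.05, 6 genes of the list were lower and 2 higher, against 3.41% and 3.81% of all genes, and the 8 were Lipm, Smpd3, Acer1, Sdr9c7, Cyp4f39, Elovl4, Elovl7 and Alox12b. In 6 genes every knockout library was lower than every wild-type library, and in 3 every knockout library was higher, against 6.16% and 6.77% of all genes. DESeq2 called 3 lower and 0 higher, against 0.514% and 1.25% of all genes, and the edgeR likelihood ratio test 4 lower and 0 higher, against 0.443% and 1.09%. The median log2 fold change of the 30 genes was -0.09, beside -0.004 over all genes, and 22 of the 30 had a log2 fold change within 0.5 of 0 in either direction, as had 91% of all genes. A term for Y-linked expression set wild-type replicates 2 and 3 apart, so its fold changes compare the knockout libraries with wild-type replicate 1 alone. With that term the median of the 30 genes had the other sign, 0.06. Of the 30 fold changes 11 were then negative, against 18 without the term. In whole handpads, fewer cells of a type and less RNA per cell cannot be told apart.

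**Figure D2:**
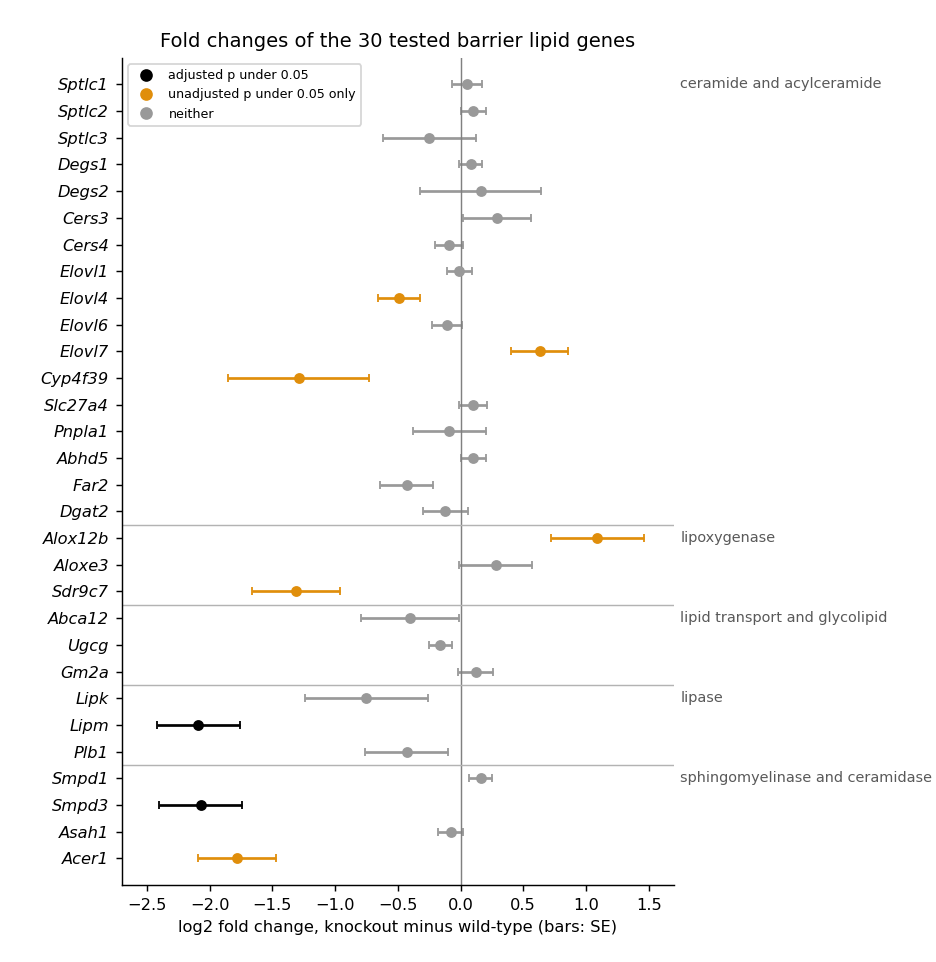
Log2 fold change, knockout minus wild-type, of the 30 tested genes by step, with bars for the SE. Lipm and Smpd3 (black) had an adjusted p under 0.05, 6 others (orange) an unadjusted p under 0.05 only, and the genes near 0 include most of ceramide synthesis.

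Among the lipases, Lipm (chromosome 19, 34100933 to 34122687, plus strand, GENCODE on GRCm38, as for all gene positions) was the only called gene. LIPM is an acid lipase made in the granular layer. Lipm measured 4.73, 1.83 and 3.13 CPM in knockout libraries, against 10.2, 16.3 and 14.7 CPM in wild-type libraries. The highest knockout library was below the lowest wild-type library, which was the one that stood apart. The log2 fold change was -2.09 (SE 0.33, adjusted p = 0.0466, edgeR). Without wild-type replicate 1 it was -2.26 (adjusted p = 0.0172, edgeR), in a fit that called 0.406% of all genes lower. With the term for Y-linked expression, which compares the knockout with wild-type replicate 1 alone, it was -1.66.

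Lipm has relatives beside it in the genome. Lipk, another lipase of late keratinocytes, lies on the same strand of chromosome 19, with Lipn between them, and 16014 bases separate Lipn from Lipm. Lipk had 0.325, 0.126 and 0.182 CPM in knockout libraries and 0.185, 0.421 and 0.455 CPM in wild-type libraries, and these groups overlapped (log2 fold change -0.75, adjusted p = 0.88, edgeR). Lipn, linked to a late-onset ichthyosis in people, had 1 estimated count in the 6 libraries together and was not tested. Ankrd22, the protein-coding gene on the other side, lies on the opposite strand and shares 1219 bases with Lipm. Ankrd22 averaged 6.22 CPM in knockout and 4.41 CPM in wild-type libraries (log2 fold change 0.49, adjusted p = 0.771, edgeR), the opposite direction to Lipm. The strand setting of the quantification is not given in the sources used here. Plb1, an epidermal phospholipase B, measured 0.614 ± 0.168 CPM in knockout and 0.825 ± 0.221 CPM in wild-type libraries (SD, n = 3 each), with most of its TPM on a transcript that is not annotated as coding.

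Smpd3 and Acer1 had the most negative fold changes of the 4 sphingomyelinases and ceramidases, and the lysosomal enzymes of the same steps had log2 fold changes of 0.16 and -0.08. Smpd3 (chromosome 8, 106252548 to 106337988, minus strand) encodes neutral sphingomyelinase 2, which cuts sphingomyelin to ceramide at membranes and is also needed for bone and cartilage mineralisation. It measured 5.34, 6.7 and 3.46 CPM in knockout libraries and 28.7, 13 and 23.5 CPM in wild-type libraries. The groups did not overlap, and wild-type replicate 2 lay nearest to the knockout. The log2 fold change was -2.07 (SE 0.33, adjusted p = 0.0466, edgeR), and it was -1.82 (adjusted p = 0.0319) without wild-type replicate 1. With the Y-linked term, against wild-type replicate 1 alone, it was -2.48. A stretch of 247 bases of the gene overlaps Prmt7, on the opposite strand, which averaged 52.3 CPM in knockout and 47.4 CPM in wild-type libraries (adjusted p = 0.853, edgeR).

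Acer1 (chromosome 17, 56953490 to 56982126, minus strand) encodes an alkaline ceramidase that releases sphingosine from ceramides with very long chains in differentiating keratinocytes. It measured 0.325, 0.505 and 0.71 CPM in knockout libraries and 1.82, 1.83 and 1.7 CPM in wild-type libraries, a gap wider than the spread within either genotype. The estimated counts behind these values were 16, 24 and 39 in knockout libraries and 69, 91 and 67 in wild-type libraries. Acer1 did not pass the threshold (log2 fold change -1.78, SE 0.31, adjusted p = 0.0705, edgeR). It passed in 5 of 18 alternatives. Among them were DESeq2 (adjusted p = 0.00026), the likelihood ratio test (adjusted p = 5.92e-05) and no filter on low counts (adjusted p = 0.0375). With 1 library left out its adjusted p was 0.0592 to 0.274 (edgeR). Smpd1, the acid sphingomyelinase of the lysosome, had 36.6, 36.7 and 39.9 CPM in knockout libraries and 33.9, 34.8 and 32.5 CPM in wild-type libraries. Its groups did not overlap either, with a log2 fold change near 0, at 0.16 (SE 0.09, adjusted p = 0.797, edgeR). Asah1, the acid ceramidase, had 77.4 ± 5.31 CPM in knockout and 81.8 ± 6.42 CPM in wild-type libraries (SD, n = 3 each).

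**Figure D3:**
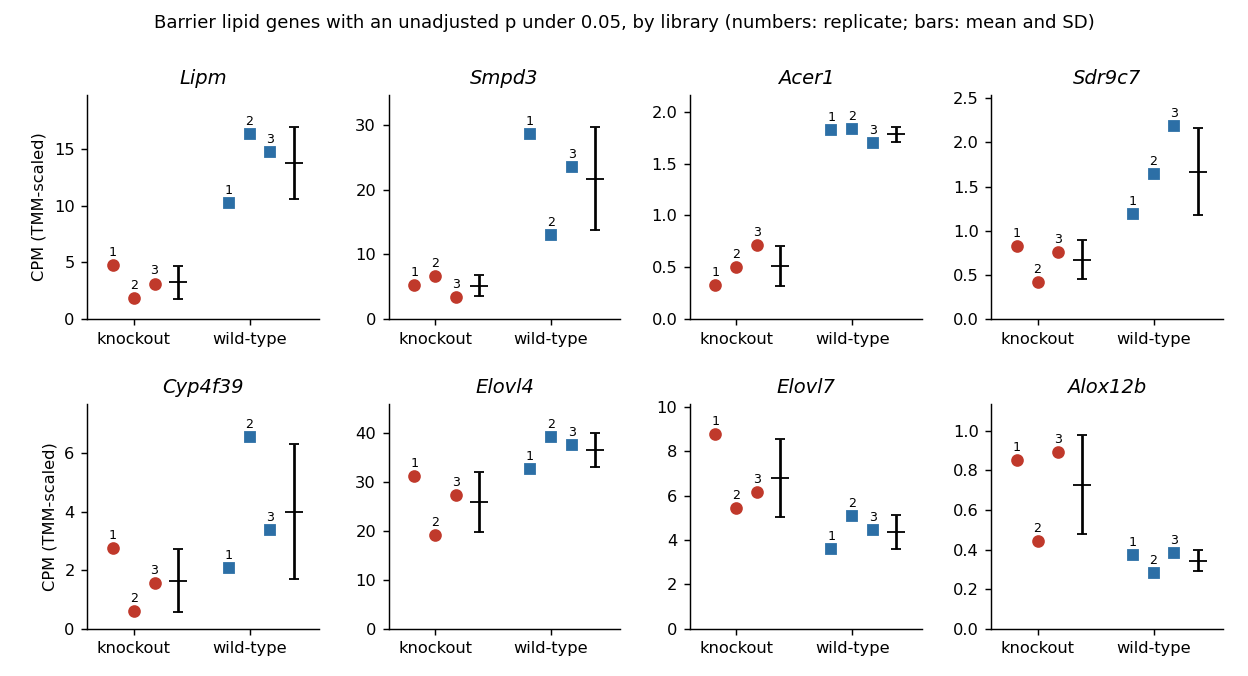
TMM-scaled CPM of the 8 genes with an unadjusted p under 0.05 in each library, knockout (red circles) left of wild-type (blue squares), with replicate numbers at the points and the mean and SD beside them. Lipm, Smpd3, Acer1, Sdr9c7 and Elovl4 were lower in every knockout library than in any wild-type library, Elovl7 and Alox12b were higher, and Cyp4f39 overlapped.

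Ceramide and acylceramide synthesis had no called gene among 17 tested, and 2 were lower and 1 higher at an unadjusted p under 0.05. The TPM of the 18 genes summed to 292, 242 and 253 in knockout libraries and 225, 313 and 298 in wild-type libraries, so the sums overlapped. Serine palmitoyltransferase makes the first committed step of sphingolipid synthesis, and its subunits Sptlc1 and Sptlc2 had log2 fold changes of 0.05 (SE 0.12) and 0.1 (SE 0.1). Sptlc3, an alternative subunit with more restricted expression, had 10.5, 4.53 and 7.17 CPM in knockout libraries and 5.2, 12.8 and 8.4 CPM in wild-type libraries. Its groups overlapped, and it varied widely within each genotype (log2 fold change -0.25, SE 0.37). Degs1 had a log2 fold change of 0.08 (SE 0.09), and Degs2, which makes phytoceramide, had 74 estimated counts over the 6 libraries and a log2 fold change of 0.16 (SE 0.48). Degs2 shares 9806 bases with Evl on the opposite strand, which was at 127 CPM in knockout and 134 CPM in wild-type libraries.

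The ceramide synthases were likewise not called. Cers3 had 16.1, 12.2 and 14.4 CPM in knockout libraries and 6.79, 15.2 and 12.9 CPM in wild-type libraries, where the library that stood apart was the low value (log2 fold change 0.29, SE 0.27). Cers4, which acts on long and very long chains, had 21.4 ± 0.842 CPM in knockout and 22.7 ± 2.51 CPM in wild-type libraries (SD, n = 3 each).

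The fatty acid elongases differed among themselves. Elovl1 and Elovl6, which extend very long and mid-length chains, had log2 fold changes of -0.01 (SE 0.1) and -0.11 (SE 0.12). Elovl4 (chromosome 9, 83778692 to 83806277, minus strand), which makes the ultra-long chains of acylceramides, had 31.3, 19.2 and 27.3 CPM in knockout libraries and 32.7, 39.3 and 37.7 CPM in wild-type libraries. All knockout libraries were lower, by a small margin at the nearest pair (log2 fold change -0.49, SE 0.17, adjusted p = 0.496, edgeR). Elovl7 (chromosome 13, 108214404 to 108285683, plus strand), an elongase of saturated very long chains, had 8.77, 5.43 and 6.17 CPM in knockout libraries and 3.57, 5.1 and 4.45 CPM in wild-type libraries. All knockout libraries were higher (log2 fold change 0.63, SE 0.23, adjusted p = 0.515, edgeR). Elovl3, known from sebaceous glands and hair follicles, had 5 estimated counts in all and was not tested.

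The later steps of acylceramide synthesis follow. Cyp4f39 (chromosome 17, 32452723 to 32493320, plus strand) is the mouse counterpart of CYP4F22, the hydroxylase that acts on the chain end of ultra-long fatty acids. It had 2.76, 0.59 and 1.58 CPM in knockout libraries and 2.09, 6.56 and 3.37 CPM in wild-type libraries. Knockout replicate 1 lay above wild-type replicate 1, so the groups overlapped (log2 fold change -1.29, SE 0.56, adjusted p = 0.686, edgeR). This value was -0.73 without wild-type replicate 2 and -0.34 with the Y-linked term. Pnpla1, the transacylase that attaches linoleate, had 6.9 ± 2.29 CPM in knockout and 7.35 ± 1.99 CPM in wild-type libraries (SD, n = 3 each), and its cofactor Abhd5 had a log2 fold change of 0.1 (SE 0.1). Slc27a4, the fatty acid transporter FATP4, had 0.1 (SE 0.11), and Dgat2, which makes triacylglycerol as a store of linoleate, had -0.12 (SE 0.18). Far2, a fatty acyl-CoA reductase for wax lipids, had 2.96, 3.81 and 4.09 CPM in knockout libraries and 3.96, 4.79 and 5.92 CPM in wild-type libraries, with overlap at the edge (log2 fold change -0.43, SE 0.21).

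The lipoxygenase branch was at low levels, and its tested genes had fold changes of both signs. Alox12b (chromosome 11, 69156989 to 69169792, plus strand), the 12R-lipoxygenase of the epidermis, had 0.852, 0.442 and 0.892 CPM in knockout libraries and 0.37, 0.281 and 0.38 CPM in wild-type libraries. All knockout libraries were higher, on 42, 21 and 49 estimated counts in knockout and 14, 14 and 15 in wild-type libraries (log2 fold change 1.09, SE 0.37, adjusted p = 0.468, edgeR). Aloxe3, which acts on the product of Alox12b and lies 7873 bases from it on chromosome 11, had 1.05 ± 0.28 CPM in knockout and 0.872 ± 0.147 CPM in wild-type libraries (SD, n = 3 each). Alox12e, an epidermal lipoxygenase of the mouse, had 8 estimated counts over the 6 libraries and was not tested.

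Sdr9c7 (chromosome 10, 127898518 to 127911761, plus strand) encodes a dehydrogenase that oxidises the lipoxygenase products. It had 0.832, 0.421 and 0.764 CPM in knockout libraries and 1.19, 1.64 and 2.18 CPM in wild-type libraries, without overlap (log2 fold change -1.31, SE 0.35, adjusted p = 0.283, edgeR). Its single coding transcript averaged 0.128 ± 0.0781 TPM in knockout and 0.567 ± 0.35 TPM in wild-type libraries (SD, n = 3 each). The share of TPM on its other transcripts varied between libraries of the same genotype, and an offset for effective length gave -0.91 (adjusted p = 0.83).

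Lipid transport and glycolipid genes had no called gene among 3 tested. Abca12 had 18.2, 6.87 and 12.9 CPM in knockout libraries and 9.4, 22.8 and 17.7 CPM in wild-type libraries. The spread within each genotype was wide and overlapping (log2 fold change -0.4, SE 0.39). With the Y-linked term, against wild-type replicate 1 alone, the sign turned (0.43). Ugcg, which adds glucose to ceramide before packing, had 48.7, 44.9 and 44.9 CPM in knockout libraries and 48.8, 50.2 and 56.2 CPM in wild-type libraries, just without overlap (log2 fold change -0.16, SE 0.09, adjusted p = 0.821, edgeR). Gm2a, the activator protein for lysosomal breakdown of gangliosides, had a log2 fold change of 0.12 (SE 0.14). St6galnac1, a sialyltransferase, had 0 estimated counts in each of the 6 libraries, and a count of 0 allows up to 0.0535 to 0.0788 CPM per library, for counting error only.

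Within each genotype several of the genes ranked the libraries alike. The order of the libraries was knockout replicate 1 above 3 above 2, and wild-type replicate 2 above 3 above 1, in 9 of the 30 genes, namely Sptlc3, Cers3, Elovl4, Elovl7, Cyp4f39, Dgat2, Abca12, Lipm and Asah1. The same order was seen in 4.49% of all tested genes. It was also the order of the mean log2 CPM of the epithelial marker list, of the periderm list and of the list of spinous and granular genes. In the periderm list wild-type replicates 1 and 3 were nearly tied, at 3.51 and 3.52. The summed CPM of the spinous and granular list put knockout replicate 3 (1280) above replicate 1 (1220). Knockout replicate 2 was the lowest knockout library in 20 of the 30 genes (30.5% of all genes), and wild-type replicate 1 the lowest wild-type library in 20 (41.4% of all genes). The mean log2 CPM of the epithelial list was 6.09, 5.78 and 6.01 in knockout libraries and 5.19, 5.96 and 5.42 in wild-type libraries.

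Lipm was among the genes with the library order of the epithelial markers within each genotype. Of 24 epithelial marker genes, 0 were called with the quasi-likelihood test. At an unadjusted p under 0.05 there were 11 higher and 1 lower in the knockout. Of 11 periderm genes, markers of the outermost embryonic layer, 7 rose and 0 fell, and at an unadjusted p under 0.05 there were 8 higher and 1 lower. Of 15 spinous and granular genes 2 rose and 0 fell, and at an unadjusted p under 0.05 there were 5 higher and 2 lower, with 6 negative fold changes in all. The lower genes in these lists were named after their values were seen. They were the epithelial marker Prom2 (log2 fold change -0.91), the keratins Krt4 (-1.75) and Krt77 (-1.31) and the transglutaminase Tgm3 (-1.1). The part of these cells in the Lipm difference was not tested. With libraries scaled on the mean log count of these markers, a choice made after seeing the data, Lipm had a log2 fold change of -2.55 and Smpd3 -2.61, beside a median of -0.476 over all genes. In that fit Lipm, Smpd3, Acer1, Sdr9c7 and Cyp4f39, 5 genes of the list, were called lower and 0 higher, against 1.02% and 0.484% of all genes.

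The order of Smpd3 over the libraries was the same as that of the mean level of a list of 8 hypertrophic cartilage and osteoblast genes, which was 3.01, 3.4 and 2.68 log2 CPM in knockout libraries and 5.23, 3.51 and 4.86 log2 CPM in wild-type libraries. The order of that list within both genotypes was found in 1 of the 30 genes (3.33%), close to the 2.7% of all genes. None of the 8 was called with the quasi-likelihood test. Of them 6 had an unadjusted p under 0.05 and were lower, and all 8 had negative fold changes. Of 10 cartilage genes 0 were called with the quasi-likelihood test. Among them 3 were lower with an unadjusted p under 0.05, and all 10 had negative fold changes. Col10a1, the collagen of hypertrophic cartilage, had 11.2, 19.3 and 5.35 CPM in knockout libraries and 98.6, 25.7 and 90.8 CPM in wild-type libraries (log2 fold change -2.59, adjusted p = 0.158, edgeR). Ibsp, which encodes bone sialoprotein, had 0.304, 0.948 and 1.58 CPM in knockout libraries and 95.9, 0.642 and 65 CPM in wild-type libraries, and the value of wild-type replicate 2 stood between those of knockout replicates 1 and 2. The part of these cells in the Smpd3 difference was not tested. Without wild-type replicate 2, the library nearest to the knockout in these genes, the log2 fold change of Smpd3 was -2.34 (adjusted p = 0.0284, edgeR), in a fit that called 0.0756% of all genes lower.

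**Figure D4:**
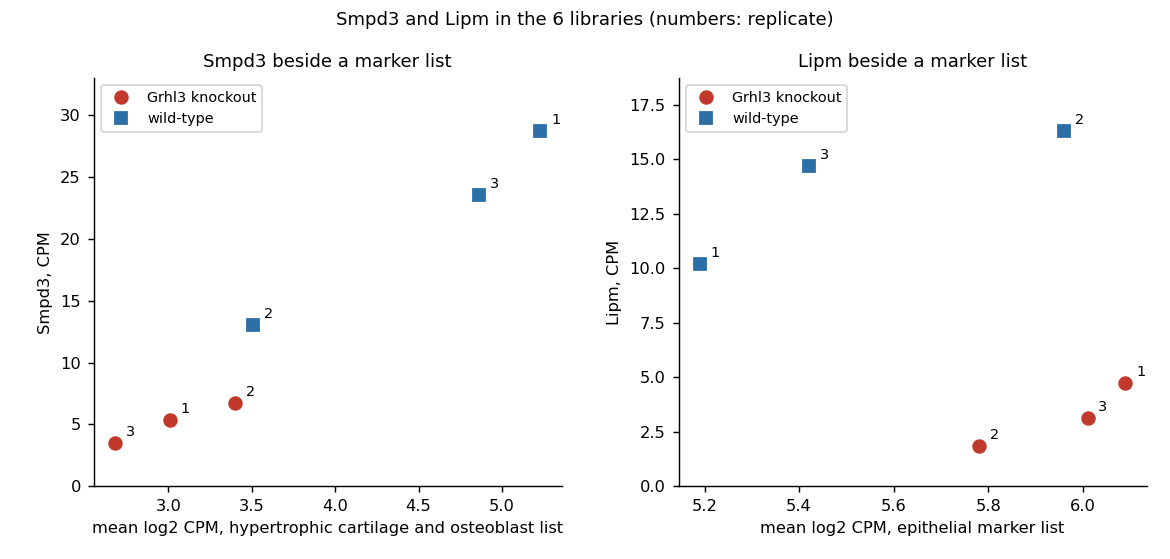
Left, Smpd3 in CPM against the mean log2 CPM of 8 hypertrophic cartilage and osteoblast genes. Right, Lipm in CPM against the mean log2 CPM of 24 epithelial marker genes. Points are the 6 libraries, knockout (red circles) and wild-type (blue squares), with replicate numbers. Smpd3 and its list put the 6 libraries in the same order, while Lipm lay lower in the 3 knockout libraries at epithelial levels within or above the wild-type range.

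With the quasi-likelihood test the other genes of these pathways gave 0 called genes. Of 27 sphingolipid genes outside the list that were tested, 1 was higher and 1 lower at an unadjusted p under 0.05. The lower gene was Sgms2, a sphingomyelin synthase that is also known from bone, with 16.8, 14.3 and 14.4 CPM in knockout libraries and 36.1, 17.9 and 40 CPM in wild-type libraries (log2 fold change -1.05, adjusted p = 0.248, edgeR). As for Smpd3, wild-type replicate 2 was nearest to the knockout. The higher gene was Acer2, a Golgi ceramidase, with 18 ± 1.59 CPM in knockout and 14.6 ± 1.02 CPM in wild-type libraries (SD, n = 3 each, adjusted p = 0.619, edgeR).

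Of 24 further fatty acid genes tested, Acsl1, an acyl-CoA synthetase, was the lower of 2 genes at an unadjusted p under 0.05, with 17 ± 1.55 CPM in knockout and 28.2 ± 6.18 CPM in wild-type libraries, and Fabp5, the epidermal fatty acid binding protein, was the higher, with 341 ± 57.3 and 246 ± 51.2 CPM (SD, n = 3 each, adjusted p = 0.183 and 0.562, edgeR). Of 17 further lipoxygenase and lipase genes, Pla2g2f, a secreted phospholipase A2 of differentiating epidermis, had 95.1, 35.4 and 57 CPM in knockout libraries and 21, 18.8 and 21.1 CPM in wild-type libraries. All knockout libraries were higher, and the gene did not pass the threshold (log2 fold change 1.62, SE 0.3, adjusted p = 0.0936, edgeR). Pla2g4e, a cytosolic phospholipase A2, was at 0.821 ± 0.206 CPM in knockout and 1.72 ± 0.657 CPM in wild-type libraries (SD, n = 3 each, adjusted p = 0.433, edgeR). None of 18 cholesterol genes or 6 genes of lamellar body trafficking had an unadjusted p under 0.05, and their log2 fold changes ran from -0.06 to 0.19 and from -0.22 to 0.11.

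Of 4 adipocyte and sebocyte genes tested, 0 were called with edgeR and 0 had an unadjusted p under 0.05, and 4 more of that list were too low to test. Of the regulators of barrier formation, 15 were tested and Grhl3 alone was called, while at an unadjusted p under 0.05 there were 2 higher and 2 lower, Grhl3 included. Ovol1 and Zfp750, which act in late keratinocyte differentiation, had log2 fold changes of 0.53 and 0.58 (adjusted p = 0.406 and 0.427, edgeR), and Gata3, another epidermal transcription factor, had -0.29 (adjusted p = 0.685, edgeR).

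The authors' deposited table of the same comparison lists 941 genes, with likelihood ratio p-values of at most 0.0506, and 7 of the 34 genes are among them. Of the 941, 228 have a false discovery rate under 0.05. The share over all genes the authors tested cannot be read from it. In the authors' deposited table Lipm, Smpd3, Acer1 and Sdr9c7 have a false discovery rate under 0.05, with log2 fold changes of -2.09, -2.08, -1.78 and -1.31. Cyp4f39, Elovl4 and Elovl7 are in the authors' deposited table with rates of 0.608, 0.358 and 0.481. Of the other pathway genes, Sgms2 and Acsl1, both lower, have rates of 0.0212 and 0.0176 there. Pla2g2f, which is higher, has 7.1e-05, and Pla2g4e and Fabp5 have 0.216 and 0.414. That table gives a likelihood ratio statistic, the test that called Lipm, Smpd3, Acer1 and Sdr9c7 here. Among the hypertrophic cartilage and osteoblast genes, Ibsp, Col10a1, Panx3 and Sp7 have rates of 0.00243, 0.00094, 0.00288 and 0.0233 in it, all lower. Of the cartilage genes Comp, also lower, has 0.00261. The other genes of these lists are above 0.05 or not listed. Among the epithelial markers Spint1, St14, Krt14 and Epcam, all higher, have 7.67e-05, 3.53e-05, 1.49e-05 and 0.00222, and the lower Prom2 has 0.232.

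With a library left out, the log2 fold change was -2.46 to -1.81 for Lipm and -2.34 to -1.82 for Smpd3, and the adjusted p crossed the threshold in several fits. Without wild-type replicate 1, genotype and embryo sex cannot be told apart. The Lipm call was kept in that fit and in no other with 1 library left out. Its adjusted p was 0.0657, 0.0553 and 0.191 without knockout replicates 1, 2 and 3, and 0.133 and 0.25 without wild-type replicates 2 and 3 (edgeR). The Smpd3 call was kept without wild-type replicate 1 or 2. Its adjusted p was 0.263, 0.0612 and 0.147 without knockout replicates 1, 2 and 3, and 0.241 without wild-type replicate 3 (edgeR). In these last 4 fits few genes of any kind were called lower, with 1, 4 and 2 of all genes without knockout replicates 1, 2 and 3 and 1 without wild-type replicate 3, against 14 with all libraries.

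**Figure D5:**
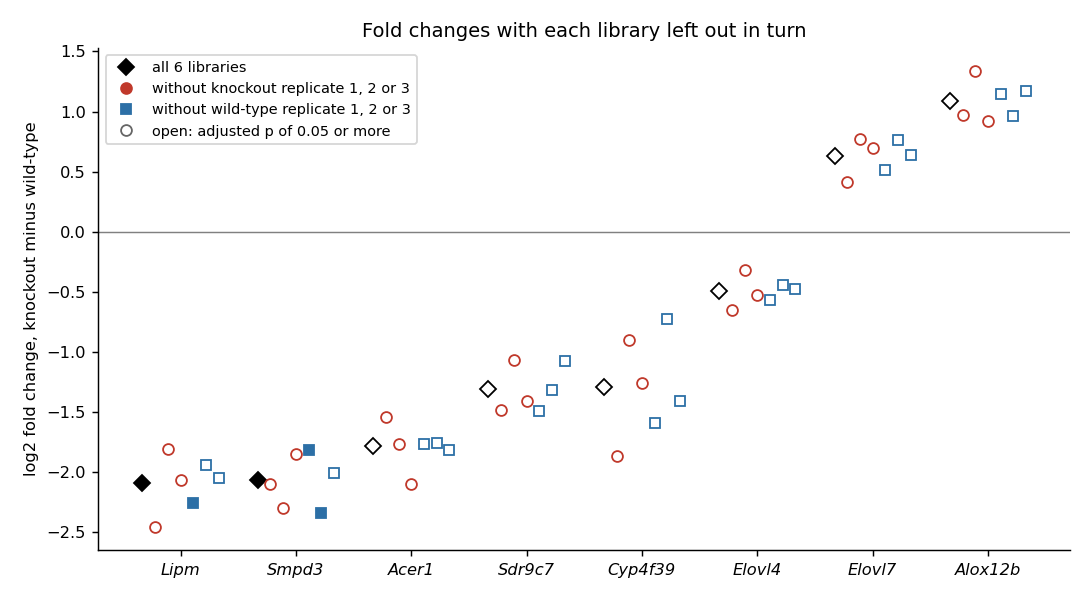
Log2 fold change of the 8 genes with all 6 libraries (black diamonds), without each knockout replicate (red circles) and without each wild-type replicate (blue squares), from replicate 1 to 3 in each colour. Filled marks have an adjusted p under 0.05. Lipm ran from -2.46 to -1.81 and Cyp4f39 from -1.87 to -0.73.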

How the data were processed

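RNA-seq of 3 Grhl3 knockout and 3 wild-type handpad samples was used. The authors deposited, for each library, estimated counts and TPM per transcript, made with kallisto on mm10 per the submitters' processing notes. The sources used here give neither versions nor the strand setting. The authors also deposited a table of log2 fold changes, likelihood ratio scores and p-values for 941 genes.

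Estimated counts were summed per gene through GENCODE vM21 (110203 of 111462 transcripts matched, and unmatched ones held 0.504% to 0.566% of counts) and rounded. TPM were summed likewise. Genes were filtered (filterByExpr, minimum count 10, minimum total 15), scaled by TMM and tested with the quasi-likelihood test of edgeR 4.0.16 in R 4.3.3, with adjustment over all 16938 genes and a threshold of 0.05. CPM are TMM-scaled. The fit was tested on simulated data, where the share of false calls was above the threshold of 0.05. Most 1.5-fold changes were missed there, and most 2-fold and 4-fold changes were recovered. Alternatives used DESeq2 1.42.0 and limma 3.58.1, other scalings, filters and offsets, a term for Y-linked expression (over 20 CPM), a replicate block, and each library left out. The Y-linked term leaves wild-type replicate 1 as the only wild-type library in the genotype comparison.

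The genes and lists were chosen with earlier results of these data known. All 34 genes are named, with up to 4 genes of smallest p from each other list. Neighbouring genes were taken by position.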

Additional observations from a re-analysis of the deposited data

How the results depend on the processing

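The count of genes of the list that were lower, 2, was 19 with libraries scaled on the summed epithelial markers, 5 on their mean log count, 4 with the likelihood ratio test, 1 with limma-voom, 1 with the Y-linked term, and 0 with a minimum of 1 CPM in 3 libraries, with effective length offsets or with the replicate block. It was 0 to 2 with 1 library left out. No alternative called a gene of the list higher. Of all genes, the 14 lower became 8976 (summed markers), 172 (mean log), 87 (DESeq2), 75 (likelihood ratio), 31 (Y-linked term), 28 (no filter), 25 (threshold 0.1), 7 (minimum 1 CPM), 5 (replicate block), 4 (length offsets) and 4 (limma-voom), and ran from 1 to 70 with a library left out. The 59 higher became 89 (summed markers), 82 (mean log), 212 (DESeq2), 185 (likelihood ratio) and 90 (no filter). They became 48 (minimum 1 CPM), 42 (replicate block), 41 (length offsets) and 41 (limma-voom), and ran from 9 to 136 with a library left out. The 136 higher and 70 lower were without wild-type replicate 1. The scaling on summed markers moved the median log2 fold change of all genes to -0.808 and that on their mean log to -0.476, and under the summed markers Degs1 turned to -0.74 (adjusted p = 0.0496, edgeR), still above that median. In 44 of 535 fold changes of the list the sign turned, Degs1 included: 21 under the scalings on epithelial markers, which shift all genes down, 11 with the Y-linked term, 10 with a library left out and 2 with length offsets. The cause of these changes was not tested.

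The labels do not say that replicate numbers pair the samples. Deviations from the genotype mean correlated at -0.244, -0.092 and -0.162 in same-numbered libraries, and at -0.117 to 0.22 in the other pairs. Deviations around a mean of 3 libraries are tied to each other, so these values cannot settle whether samples were paired. With the replicate block Lipm had a log2 fold change of -2.15 (adjusted p = 0.119, edgeR) and Smpd3 -2.05 (adjusted p = 0.109, edgeR). Depth limits the genes near or under 1 CPM, such as Acer1, Alox12b and Lipk.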
